A study of Mus musculus with 6 samples.

Results

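The genes of the proteasome are described here in mouse epiblast-like cells (EpiLCs) and embryonic stem cells (ESCs). They were taken by name from the deposited expression table, as every row whose symbol begins with Psma, Psmb, Psmc, Psmd, Psme, Psmf or Psmg followed by a number. The pattern matched 56 of 78298 genes, and 5 pseudogenes with a -ps suffix were left out, which leaves 51. Of these, 48 encode subunits, activators, an inhibitor or assembly factors of the proteasome, and 3 (Psmc3ip, Psme3ip1 and Psme2b) only share the prefix or are a copy, and stand apart below. The data were poly(A) RNA sequencing profiles of 3 EpiLC libraries and 3 ESC libraries, all wild type and all from 1 mouse line, which the labels call BVSC clone H18. ESCs are the cultured counterpart of the naive epiblast before implantation, and EpiLCs are a state derived from them that resembles the epiblast after implantation. A single clone limits both groups as a model, and the labels give no medium, day or treatment for either. Column names carry the tag 0uM, which no label explains.

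The 26S proteasome is the main protease for proteins tagged with ubiquitin. Its 20S core is a barrel of stacked rings, with outer rings of alpha subunits that gate entry and inner rings of beta subunits, 3 kinds of which (Psmb5, Psmb6 and Psmb7) cut peptide bonds. The 19S cap binds, unfolds and deubiquitinates substrates, and consists of a base with 6 ATPases and of a lid. Interferon or differentiation can replace the catalytic subunits with the inducible forms Psmb8, Psmb9 and Psmb10 (the immunoproteasome), and other activators (Psme1 to Psme4) can take the place of the cap. In human embryonic stem cells a high proteasome activity has been linked to the lid subunit PSMD11.

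Values are TPM (each gene's share of a library's transcripts, scaled for transcript length), so levels can be compared between genes, but a value does not tell how many reads lie behind it. TPM added up to 1000000 in every library, and 13610 to 13983 genes were at 1 TPM or more. The titles number the libraries as biological replicates but do not say whether separate cultures gave them, so p-values rest on the spread between these 6 libraries, which may be technical. TPM are relative to the RNA of the whole culture, in which fewer cells of a type and less RNA per cell cannot be told apart. The markers fixed for each state followed the labels. The summed level of Klf4, Tfcp2l1, Esrrb and Tbx3 was 23.6 to 27.5 TPM in EpiLCs and 680.3 to 748 TPM in ESCs, and that of Fgf5, Otx2, Pou3f1 and Dnmt3b was 439 to 633 TPM in EpiLCs and 13.9 to 15.8 TPM in ESCs. The 6 markers of feeder fibroblasts summed to 10.9 to 13.3 TPM in EpiLCs and 3.18 to 5.69 TPM in ESCs. Most of this was Thy1, which rose, and 4 of the 6 were below 1 TPM in every library. Col1a1 alone went the other way, at 0.296 to 0.448 TPM in EpiLCs and 0.480 to 1.21 TPM in ESCs. Col1a2 and Twist2 were at 0.351 to 0.471 and 0.335 to 0.605 TPM in EpiLCs, and at most 0.0211 and 0.0283 TPM in ESCs. Col3a1 and Postn were at most 0.0287 and 0.0534 TPM in EpiLCs and at 0 in ESCs. The 4 markers of primitive endoderm summed to 6.61 to 9.59 TPM in EpiLCs and 1.65 to 2.07 TPM in ESCs. Dab2 made up most of that sum in EpiLCs and rose, while Gata6 and Sox17 were at most 0.364 TPM in EpiLCs and 1.16 TPM in ESCs. Sox7 was at 0.164 to 0.260 TPM in EpiLCs and at most 0.0834 TPM in ESCs. All 3 trophoblast markers were below 1 TPM in every library. Both the feeder and the endoderm sums thus moved, mainly through Thy1 and Dab2, in the same direction as most called proteasome genes. Of the feeder and endoderm markers, only Col1a1, Gata6 and Sox17 were higher in ESCs. The part of such cells in those results was not tested.

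Most genes of the proteasome were abundant in both states, and most differences were small. Transcripts of 6 of the 7 standard alpha subunits, of the 3 standard catalytic beta subunits and of 3 of the 6 ATPases rose modestly in EpiLCs, as did, by larger amounts, those of the inducible subunit Psmb10 and the assembly chaperone Psmg2. In the test described below 36.1% of all tested genes were called higher and 30.9% lower in EpiLCs, so counts in such small classes are descriptions only. The nuclear activator Psme3 was higher, and the interferon-inducible activator Psme1 lower. Together the 48 genes made up 0.878 ± 0.00693% of all TPM in EpiLCs and 0.784 ± 0.00802% in ESCs (SD, n = 3 each), and the lowest EpiLC library (0.871%) lay above the highest ESC library (0.793%).

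**Figure D1:**
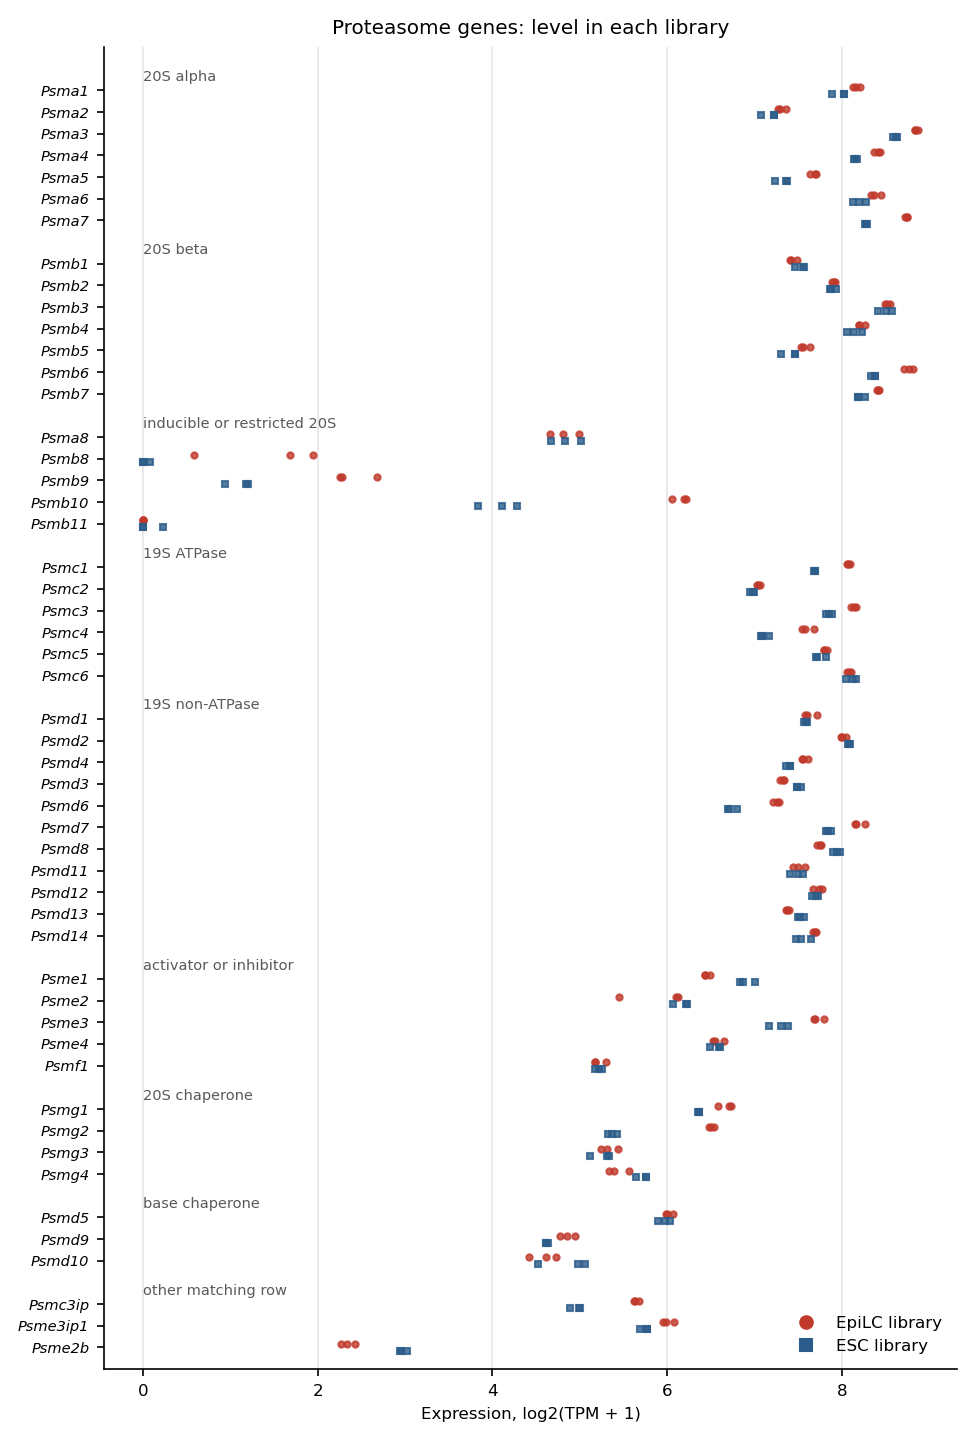
Level of each proteasome gene as log2(TPM + 1) in the 3 EpiLC libraries (circles) and the 3 ESC libraries (squares), grouped by structural class. The standard core and cap subunits lie between 6 and 9 in both states, and Psmb8, Psmb9, Psmb10 and Psmb11 lie to the left of them.

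EpiLCs were compared with ESCs by limma on log2(TPM + 1) over the 14036 genes whose mean over the 6 libraries reached 1 TPM, and a gene was called at a Benjamini-Hochberg adjusted p below 0.05. Every adjusted p below is from this fit, and fold changes are EpiLC over ESC on that scale. Of the 51 genes, 49 were tested, 23 were called higher and 6 lower in EpiLCs, and 20 did not pass. Over all tested genes 36.1% were called higher, 30.9% lower and 66.9% in either direction (39.8% higher and 33.3% lower among the 5830 genes with a mean of 20 TPM or more), so a call is common in this comparison. The groups did not overlap for 33 of the 49 genes (67.3%), against 71.5% of all tested genes. The sizes differed more from the background than the counts. Among the 46 tested genes of the proteasome proper, 56.5% were called and 65.2% did not overlap. Of these 46, 3 (6.52%) were called with a change of at least 1.5-fold, and 5 (10.2%) of all 49 were. The share was 37.4% of all tested genes and 29.8% of those with a mean of 20 TPM or more. The same 3 (Psmb9, Psmb10 and Psmg2) changed at least 2-fold, as did 19.3% of all tested genes. The median log2 fold change of these 46 was 0.11, against 0.04 over all tested genes, and their median absolute log2 fold change was 0.19, against 0.44. Neither median was taken over the genes with a mean of 20 TPM or more, which are closer in level to most proteasome genes. The upward balance depends in part on the scaling: with median-of-ratios scaling 18 of the 51 genes were called higher and 8 lower, with a median of 0.05 over the 49 tested genes, against 0.13 on the TPM as deposited.

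**Figure D2:**
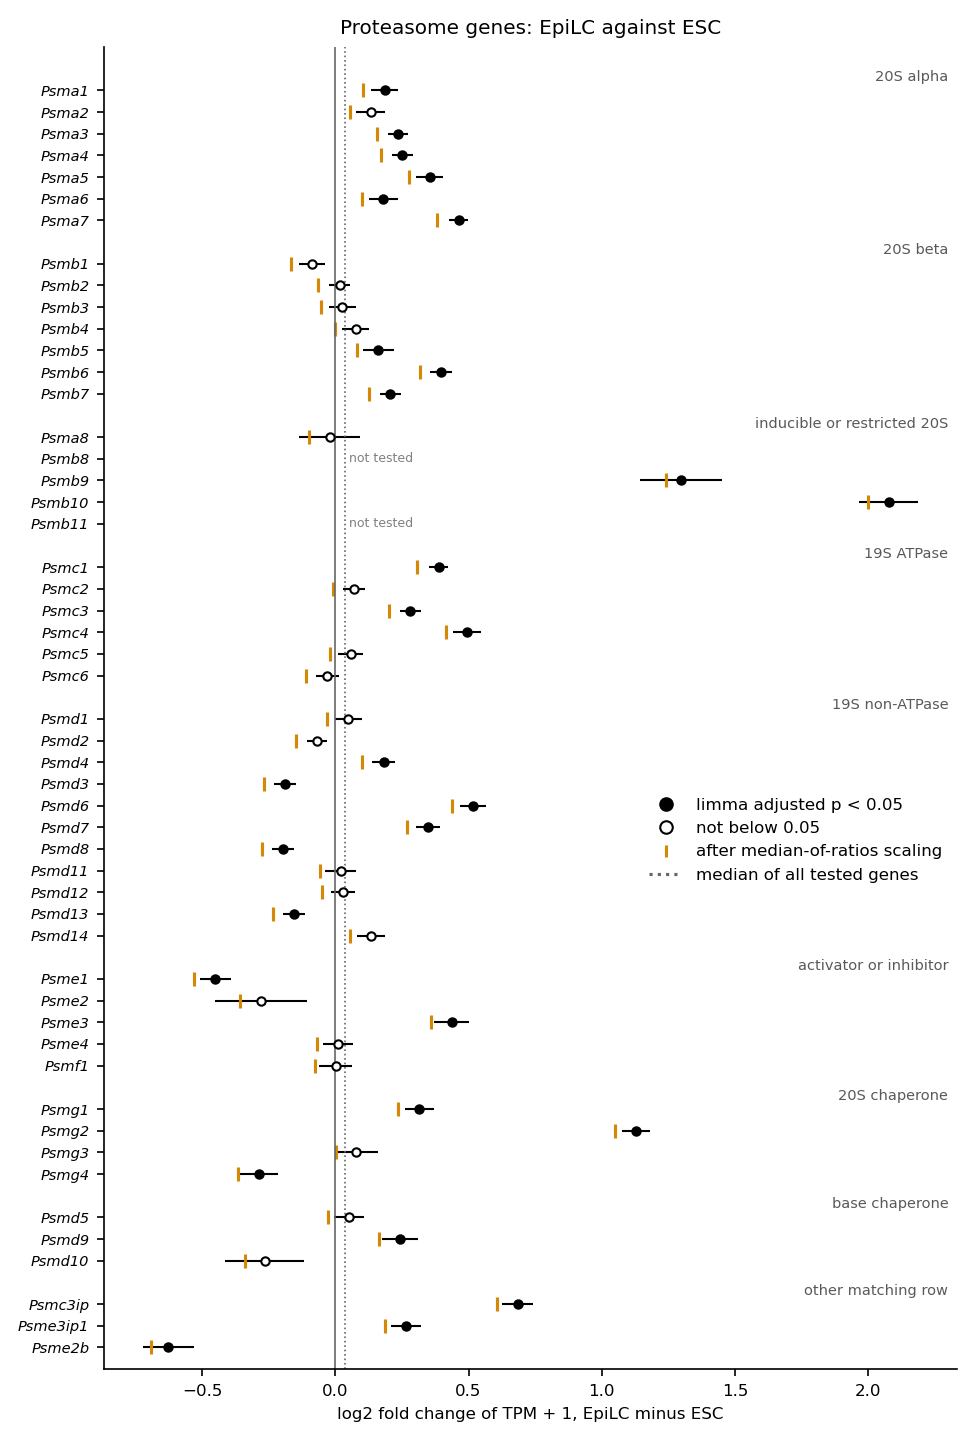
Log2 fold change of TPM + 1, EpiLC minus ESC, of each proteasome gene with its standard error (bars); filled circles passed a limma adjusted p of 0.05. Ticks give the value after median-of-ratios scaling and the dotted line the median of all tested genes (0.04): the alpha subunits lie to the right of 0 under both scalings, and Psmb10 (2.08), Psmb9 (1.30) and Psmg2 (1.13) stand out.

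The alpha subunits form the outer rings of the core. All 7 standard members were higher in every EpiLC library than in any ESC library, and 6 of the 7 passed the test, with rises between 1.13-fold (Psma6) and 1.38-fold (Psma7). Over all tested genes 36.1% were called higher, and 71.5% did not overlap between the groups in either direction. Psma7 had 425, 428 and 421 TPM in EpiLCs, against 307, 307 and 310.0 TPM in ESCs. Libraries of each state differed by only a few TPM, and the rise was 0.46 on the log2 scale (SE 0.04, adjusted p = 1.6e-05). Psma5 rose to 203 ± 5.21 TPM in EpiLCs, against 159 ± 7.89 TPM in ESCs (limma adjusted p = 0.00046). Psma3 was the most abundant of all 51 genes in both states, at 459 ± 6.67 TPM in EpiLCs and 390.1 ± 5.79 TPM in ESCs. Psma1, Psma3, Psma4 and Psma6 rose by 0.18, 0.23, 0.25 and 0.18 on the log2 scale. Psma2, the least abundant of the ring, had 157 ± 4.99 TPM in EpiLCs and 143 ± 8.43 TPM in ESCs and did not pass (adjusted p = 0.068). The calls of Psma1 and Psma6 were lost with median-of-ratios scaling (adjusted p = 0.093 and 0.12). That of Psma6 was also lost without EpiLC replicate 1 or ESC replicate 2 (adjusted p = 0.065 and 0.055).

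The testis-enriched alpha subunit Psma8, which can replace Psma7 in spermatocytes, was present at a low level. It had 30.7, 24.2 and 27.0 TPM in EpiLCs, against 31.4, 24.4 and 27.3 TPM in ESCs. The groups overlapped and the gene did not pass (adjusted p = 0.88). Its share of the summed Psma8 and Psma7 TPM was 5.34% to 6.73% in EpiLCs and 7.37% to 9.26% in ESCs.

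In the beta ring, none of the 4 subunits without a cutting site (Psmb1, Psmb2, Psmb3 and Psmb4) passed the test, and each overlapped between the groups, and all 3 catalytic subunits were called higher with no overlap. The difference between these sets was not tested, and over all tested genes 36.1% were called higher and 71.5% did not overlap. Psmb1 had 172 ± 5.60 TPM in EpiLCs and 183 ± 7.31 TPM in ESCs, and Psmb2 had 238 ± 2.82 TPM in EpiLCs and 236 ± 6.60 TPM in ESCs. Psmb3 and Psmb4 averaged 366 and 296 TPM in EpiLCs and 359.6 and 281 TPM in ESCs. With median-of-ratios scaling Psmb1 was called lower (adjusted p = 0.013).

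Psmb6, the subunit with caspase-like activity, had 446, 418 and 433 TPM in EpiLCs, against 331, 322 and 332 TPM in ESCs. It rose by 0.40 on the log2 scale (SE 0.04, adjusted p = 8.1e-05), the largest change among the standard beta subunits. Psmb7, which carries the trypsin-like activity, had 341, 338 and 339 TPM in EpiLCs, against 305, 288 and 288 TPM in ESCs (log2 fold change 0.21, SE 0.04, adjusted p = 0.0024). Psmb5, which carries the chymotrypsin-like activity and is the main target of the drug bortezomib, had 186, 197 and 183 TPM in EpiLCs, against 175, 176 and 157 TPM in ESCs. Its lowest EpiLC library lay just above its highest ESC library, and the rise of 0.16 on the log2 scale (SE 0.06, adjusted p = 0.039) was lost in 7 of 15 alternatives, among them median-of-ratios scaling (adjusted p = 0.23) and leaving out any 1 EpiLC library or ESC replicate 3 (adjusted p = 0.0501 to 0.12).

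All 3 inducible catalytic subunits were higher in EpiLCs, at very different levels. Psmb10, which replaces Psmb7, had 65.6, 73.1 and 71.8 TPM in EpiLCs, against 16.3, 18.4 and 13.3 TPM in ESCs. The rise was 4.22-fold (log2 fold change 2.08, SE 0.11, adjusted p = 2.9e-06), the largest of the 49 tested genes. Psmb9, which replaces Psmb6, had 5.40, 3.77 and 3.87 TPM in EpiLCs, against 1.27, 1.31 and 0.921 TPM in ESCs (log2 fold change 1.30, SE 0.15, adjusted p = 0.00017). Psmb8, which replaces Psmb5, had 2.86, 0.496 and 2.20 TPM in EpiLCs, and in ESCs it was listed at 0.0610 TPM in replicate 1 and at 0 in the others. Its mean over the 6 libraries was below the filter of 1 TPM, so it was not tested in the main comparison; without that filter its log2 fold change was 1.37 (limma adjusted p = 0.028). Psmb11, the subunit of the thymic cortex, was listed at 0 in 5 of 6 libraries and at 0.170 TPM in ESC replicate 2.

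The standard forms remained far more abundant. Psmb10 made up 16.1% to 17.8% of the summed Psmb10 and Psmb7 TPM in EpiLCs and 4.41% to 5.99% in ESCs. Psmb9 made up at most 1.20% of the Psmb9 and Psmb6 sum in EpiLCs and at most 0.405% in ESCs, and Psmb8 at most 1.51% of the Psmb8 and Psmb5 sum in EpiLCs and at most 0.0349% in ESCs. Over all 6 genes the inducible share was 7.37 ± 0.274% in EpiLCs and 2.12 ± 0.323% in ESCs (SD, n = 3 each), with every EpiLC library above every ESC library. These are shares of transcript, and the subunits in assembled particles were not measured. Immune cells, which carry the immunoproteasome at a high level, were looked for by 6 markers. Ptprc, Csf1r and Lyz2 were below 0.1 TPM in every library, and the 6 markers summed to 8.64 to 10.5 TPM in EpiLCs and 51.7 to 59.4 TPM in ESCs, nearly all of it Cd68 and Cd3e, which were lower in EpiLCs.

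**Figure D3:**
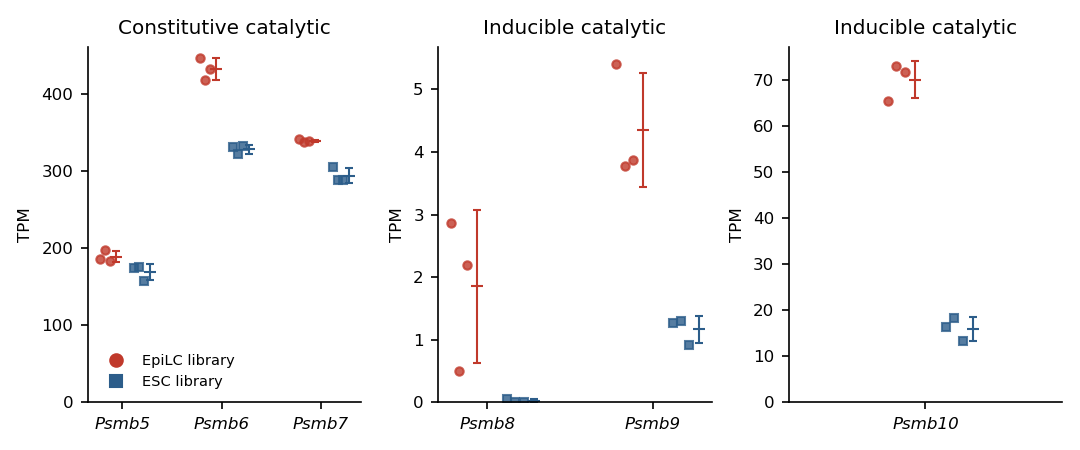
TPM of the standard catalytic subunits (left) and of their inducible counterparts (centre and right) in each EpiLC library (circles) and ESC library (squares), with mean and SD beside them. Each panel has its own axis from 0: Psmb10 averaged 70.2 TPM in EpiLCs and 16 TPM in ESCs, while Psmb7 averaged 339 TPM in EpiLCs and 294 TPM in ESCs.

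The sequences before the annotated starts of Psmb8, Psmb9, Psmb10, Psmb5 and Psmb6 are shown because they include Psmb10, the gene with the largest change. That of Psmb7 is not shown. Each is the last 150 bases before the start in RefSeq's annotation of GRCm38.p6, on the strand of the gene, whereas the values were made on GRCm39. Psmb8 lies at chr17:34198045-34198194 (plus strand), Psmb9 at chr17:34187331-34187480 (minus), Psmb10 at chr8:105938393-105938542 (minus), Psmb5 at chr14:54617996-54618145 (minus) and Psmb6 at chr11:70525207-70525356 (plus). Capitals mark matches, on either strand, to any of the 5 motifs named after the sequences.
Psmb8: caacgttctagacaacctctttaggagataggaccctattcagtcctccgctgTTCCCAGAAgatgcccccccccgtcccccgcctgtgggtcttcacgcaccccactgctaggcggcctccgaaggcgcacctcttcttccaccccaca
Psmb9: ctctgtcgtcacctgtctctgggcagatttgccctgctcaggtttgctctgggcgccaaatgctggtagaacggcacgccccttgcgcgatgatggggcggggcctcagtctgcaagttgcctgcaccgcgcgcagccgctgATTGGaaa
Psmb10: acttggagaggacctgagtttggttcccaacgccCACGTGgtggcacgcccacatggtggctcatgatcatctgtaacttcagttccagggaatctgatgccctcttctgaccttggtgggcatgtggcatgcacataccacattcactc
Psmb5: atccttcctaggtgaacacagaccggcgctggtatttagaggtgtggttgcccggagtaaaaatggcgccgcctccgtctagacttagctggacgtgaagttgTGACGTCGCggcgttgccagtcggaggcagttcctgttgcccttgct
Psmb6: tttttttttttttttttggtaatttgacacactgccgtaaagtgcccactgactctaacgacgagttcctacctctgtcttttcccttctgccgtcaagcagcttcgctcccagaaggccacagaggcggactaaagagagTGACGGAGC

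The motifs were TGACNNNGC, like the antioxidant response element through which the transcription factor NRF1 acts on proteasome genes, CCAAT, the NF-Y box, CACGTG, the E-box, GAAA followed after any 2 bases by another GAAA, like the interferon-stimulated response element, and TTCNNNGAA, like the STAT binding site. They were searched on both strands in the 250 bases before the start, which 43 of the 51 genes have in the RefSeq table, and no matches of different motifs overlapped. In Psmb5 and Psmb6 the match to TGACNNNGC begins 47 and 9 bases before the start. That motif was found for 5 of the 43 genes (11.6%: Psmb5, Psmb6, Psmc6, Psmd9 and Psmd12), against 11.5% of 27025 genes with an entry. CCAAT was found for 16 of the 43 (37.2%), against 37.5% of all genes, CACGTG for 5 (11.6%, against 6.86%), the spaced GAAA pair for 3 (6.98%, against 3.46%) and TTCNNNGAA for 2 (4.65%, Psmb8 and Psmg1, against 8.13%). These are letter matches in a short window, and binding was not measured. Repeat elements were not set apart in the search, so a match, such as the CACGTG of Psmb10, may lie in one.

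In the base of the 19S cap, a ring of 6 ATPases unfolds the substrate and opens the core. Psmc1, Psmc3 and Psmc4 were called higher, and Psmc2, Psmc5 and Psmc6 did not pass. That is 50% of the ring called higher, against 36.1% of all tested genes. Psmc4 had 185, 190.2 and 203 TPM in EpiLCs, against 133, 143 and 134 TPM in ESCs. The rise of 0.49 on the log2 scale (SE 0.05, adjusted p = 9.5e-05) was the largest of the ring, and the groups were well apart. Psmc1 had 268 ± 2.82 TPM in EpiLCs and 204 ± 1.33 TPM in ESCs (limma adjusted p = 5.3e-05), and Psmc3 had 279 ± 5.17 TPM in EpiLCs and 229 ± 5.03 TPM in ESCs (limma adjusted p = 0.00044). Psmc6 had 269 ± 3.61 TPM in EpiLCs and 275 ± 11 TPM in ESCs. Psmc5 had 222 ± 3.01 TPM in EpiLCs and 213 ± 9.99 TPM in ESCs, and Psmc2, the least abundant, had 131 ± 1.75 TPM in EpiLCs and 124 ± 2.07 TPM in ESCs without overlap but short of the threshold (adjusted p = 0.17).

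The other base subunits moved little. The ubiquitin receptor Psmd4 rose to 189 ± 4.91 TPM in EpiLCs, against 166 ± 2.42 TPM in ESCs (log2 fold change 0.18, limma adjusted p = 0.0056), a call lost with median-of-ratios scaling (adjusted p = 0.062). The scaffold subunits Psmd1 and Psmd2 did not pass, at 197 ± 10.4 and 257 ± 5.12 TPM in EpiLCs and 191 ± 2.3 and 269 ± 2.40 TPM in ESCs. Psmd2 was called lower with median-of-ratios scaling and with quantile normalization (adjusted p = 0.015 and 0.022).

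In the lid, which removes ubiquitin chains before degradation, calls went both ways. Of its genes 25% were called higher and 37.5% lower, against 36.1% and 30.9% of all tested genes. Psmd6 and Psmd7 rose, Psmd3, Psmd8 and Psmd13 fell, and Psmd11, Psmd12 and Psmd14 did not pass. Psmd6 had 155, 146 and 152 TPM in EpiLCs, against 103, 109.9 and 103 TPM in ESCs (log2 fold change 0.52, SE 0.05, adjusted p = 4.8e-05), the largest rise among all standard core and cap subunits. Psmd7, the partner of the deubiquitinase subunit, had 291 ± 12.0 TPM in EpiLCs and 228 ± 4.30 TPM in ESCs (limma adjusted p = 0.00027). Psmd8 had 209, 214 and 215 TPM in EpiLCs, against 244, 250.1 and 236 TPM in ESCs, a fall of 0.874-fold (SE 0.04 on the log2 scale, adjusted p = 0.0037). Psmd3 and Psmd13 had 158 ± 2.70 and 164 ± 1.81 TPM in EpiLCs and 180.1 ± 3.65 and 183 ± 4.44 TPM in ESCs (limma adjusted p = 0.0042 and 0.011). The 3 falls were small but without overlap between the groups, which also held for 71.5% of all tested genes.

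The deubiquitinase subunit itself, Psmd14, had 205, 202 and 206 TPM in EpiLCs, against 184, 176 and 199 TPM in ESCs. The groups did not overlap, but ESC replicate 3 lay close to the EpiLC values and the gene stayed just above the threshold (adjusted p = 0.054). It passed without that library (adjusted p = 0.016). Psmd11, the lid subunit linked to proteasome activity in human stem cells, had 172, 189.8 and 179 TPM in EpiLCs, against 186, 180.0 and 168 TPM in ESCs. Its groups overlapped, and its log2 fold change was 0.02 (SE 0.06, adjusted p = 0.78). Psmd12 had 210.3 ± 7.26 TPM in EpiLCs and 206 ± 4.70 TPM in ESCs.

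Seen per gene, core transcripts were more abundant than cap transcripts in both states. The 14 standard core genes averaged 302 ± 4.18 TPM per gene in EpiLCs and 263 ± 5.84 TPM in ESCs, and the 17 standard cap genes among the 51 averaged 210.4 ± 1.58 TPM in EpiLCs and 195 ± 0.462 TPM in ESCs (SD over libraries, n = 3 each). The ratio of the core mean to the cap mean was 1.42 to 1.47 in EpiLCs and 1.32 to 1.38 in ESCs. Core subunits occur in equal numbers in the particle, yet the most abundant of the 14 transcripts exceeded the least abundant 2.79 to 3.05 times in the EpiLC libraries and 2.58 to 2.94 times in the ESC libraries. The mean of the alpha genes exceeded that of the beta genes 1.08 to 1.09 times in EpiLCs, and the same ratio was 0.965 to 1.03 in ESCs. Summed over a class, the alpha genes had 2199 ± 27.4 TPM in EpiLCs and 1828 ± 42.4 TPM in ESCs, the standard beta genes 2033 ± 33.0 TPM in EpiLCs and 1851 ± 60.8 TPM in ESCs, and the ATPases 1361 ± 18.0 TPM in EpiLCs and 1183 ± 20.9 TPM in ESCs. The lid and other base genes together had 2215 ± 16 TPM in EpiLCs and 2137 ± 15.0 TPM in ESCs, a direction that turned round with median-of-ratios scaling.

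**Figure D4:**
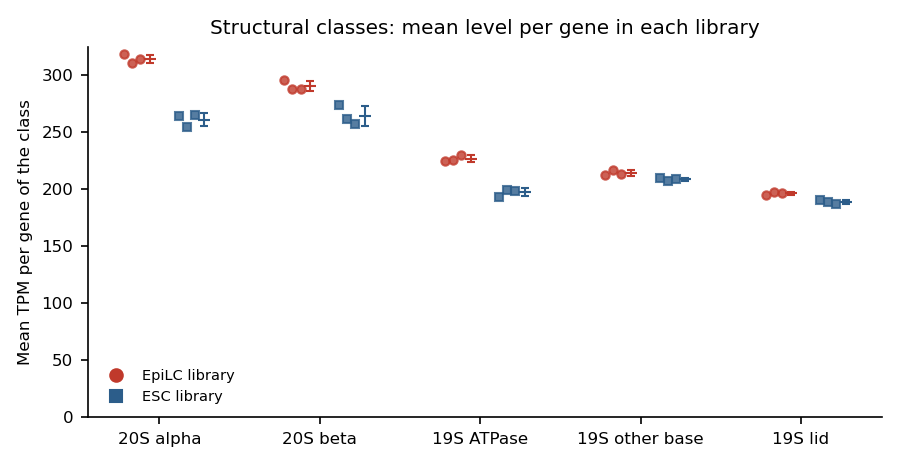
Mean TPM per gene of the alpha subunits, the standard beta subunits, the ATPases, the other base subunits and the lid subunits in each EpiLC library (circles) and ESC library (squares), with mean and SD over the 3 libraries. The alpha class averaged 314 TPM in EpiLCs and 261 TPM in ESCs, and the lid 196 TPM in EpiLCs and 189 TPM in ESCs.

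The alternative activators of the core did not move together. Psme3, which forms the nuclear activator PA28 gamma, had 204, 205 and 221 TPM in EpiLCs, against 142, 166 and 156 TPM in ESCs (log2 fold change 0.44, SE 0.07, adjusted p = 0.00059). Psme1, a subunit of the cytosolic, interferon-inducible activator PA28, had 88.9, 85.1 and 85.1 TPM in EpiLCs, against 116, 127 and 113 TPM in ESCs. It fell by 0.45 on the log2 scale (SE 0.06, adjusted p = 0.00024), with no overlap. The TPM of Psme3 exceeded that of Psme1 2.29 to 2.60 times in the EpiLC libraries and 1.23 to 1.39 times in the ESC libraries. Psme2, the partner of Psme1, had 67.7, 42.6 and 68.8 TPM in EpiLCs, against 73.8, 73.5 and 66.0 TPM in ESCs. EpiLC replicate 2 was low, the other EpiLC libraries overlapped with ESCs, and the gene did not pass (adjusted p = 0.18). Irf1, a transcription factor of the interferon response, was also lowest in that library among the EpiLCs, at 20.2 TPM against 48.8 and 35.9 TPM in the other EpiLC libraries, and so were Psmb8 (0.496 TPM) and Tap1 (6.31 TPM); Irf1 was picked after its values were seen. Whether these values have a common source was not tested. Psme4, the activator PA200, had 90.6, 92.3 and 99.6 TPM in EpiLCs, against 96.2, 88.7 and 95.5 TPM in ESCs. Psmf1, which encodes the inhibitor PI31, had 38.4, 35.0 and 35.0 TPM in EpiLCs, against 37.0, 36.2 and 35.0 TPM in ESCs. Both overlapped between the groups (adjusted p = 0.88 and 0.98).

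The core is built with the help of chaperone pairs, of which Psmg1 pairs with Psmg2 and Psmg3 with Psmg4. Both members of the first pair rose. Psmg2 had 87.8, 89.2 and 91.3 TPM in EpiLCs, against 42.0, 38.9 and 40.2 TPM in ESCs, a 2.19-fold rise (log2 fold change 1.13, SE 0.05, adjusted p = 1.5e-06). Psmg1 had 103, 94.4 and 105 TPM in EpiLCs, against 81.0, 81.3 and 80.3 TPM in ESCs (log2 fold change 0.31, limma adjusted p = 0.0013). The TPM of Psmg2 was 0.850 to 0.945 times that of its partner in EpiLCs and 0.478 to 0.518 times in ESCs. In the other pair Psmg4 fell, with 46.3, 39.4 and 40.9 TPM in EpiLCs, against 53.2, 48.9 and 52.9 TPM in ESCs (log2 fold change -0.29, SE 0.07, adjusted p = 0.0095). Psmg3 did not pass, at 39.3 ± 2.74 TPM in EpiLCs and 37.2 ± 3.07 TPM in ESCs.

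**Figure D5:**
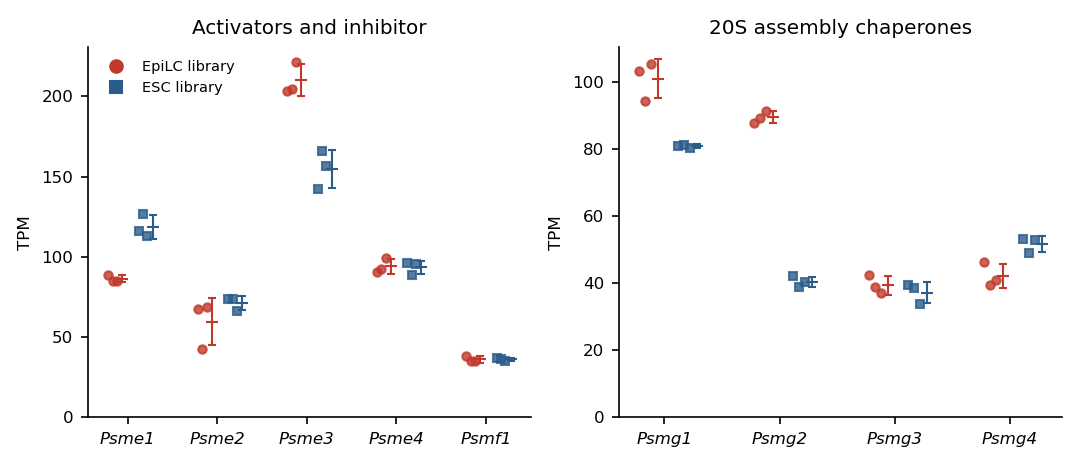
TPM of the activators and the inhibitor (left) and of the core assembly chaperones (right) in each EpiLC library (circles) and ESC library (squares), with mean and SD. Psme3 and Psme1 separate the groups in opposite directions, and Psmg2 averaged 89.4 TPM in EpiLCs and 40.4 TPM in ESCs.

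Chaperones of the 19S base release their ATPase partners as the cap forms. Psmd9 had 29.9, 26.4 and 28.0 TPM in EpiLCs, against 23.9, 23.5 and 23.4 TPM in ESCs (log2 fold change 0.24, SE 0.07, adjusted p = 0.013), a call lost with median-of-ratios scaling (adjusted p = 0.063). Psmd5 had 63.5 ± 1.87 TPM in EpiLCs and 61.3 ± 2.93 TPM in ESCs. Psmd10, also known as gankyrin and the X-linked member among the 51, had 25.5, 20.4 and 23.5 TPM in EpiLCs, against 32.3, 21.9 and 30.6 TPM in ESCs. ESC replicate 2 lay among the EpiLC values, and without it Psmd10 was called lower (log2 fold change -0.43, adjusted p = 0.0093; adjusted p = 0.15 with all libraries).

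The 3 other genes of the name pattern all passed the test, as did 66.9% of all tested genes. Psmc3ip encodes HOP2, a factor of meiotic recombination, and had 49.0 ± 1.05 TPM in EpiLCs and 30.1 ± 1.36 TPM in ESCs (log2 fold change 0.68, limma adjusted p = 2.9e-05). Psme3ip1 encodes a protein that binds the Psme3 activator and had 63.2 ± 2.96 TPM in EpiLCs and 52.4 ± 1.64 TPM in ESCs (limma adjusted p = 0.0038). Psme2b fell to 4.08 ± 0.297 TPM in EpiLCs, against 6.84 ± 0.266 TPM in ESCs (limma adjusted p = 0.00066). It is nearly a copy of Psme2: 76.5% of the 31-base words of its longest transcript in GENCODE M21 also occur in Psme2, so its reads and those of Psme2 could be split between them. Psme2 and Psme2b together had 71.8, 46.4 and 73.2 TPM in EpiLCs, against 80.5, 80.2 and 73.2 TPM in ESCs.

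Proteasome genes have many processed copies in the mouse genome. For 13 of the 51 genes more than 10% of the 31-base words of the longest coding transcript occur in transcripts of other genes in that annotation, and the median over the 51 was 0.198%. The share was highest for Psme2b, Psmb5 (74.0%), Psmb3 (66.8%), Psme2 (66.2%) and Psma5 (64.0%), so their values are uncertain. The processed copy that shares most with Psmb5, Gm3375, picked after its values were seen, was itself listed at 83.5, 72.2 and 73.4 TPM in EpiLCs, against 57.3, 49.6 and 52.1 TPM in ESCs. Psmb5 and Gm3375 together had 270, 269.5 and 257 TPM in EpiLCs, against 232, 225 and 209 TPM in ESCs. The 5 pseudogenes with a -ps suffix were at most 1.11 TPM in any library. Psmb10, Psmg2, Psma7 and Psmd6 shared no such word with other genes.

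Genes that work with the proteasome gave a mixed picture. Of 11 associated genes, 6 were called higher, 3 lower and 2 did not pass, with a median log2 fold change of 0.15. The shares called, 54.5% higher and 27.3% lower, stood against 36.1% and 30.9% of all tested genes. Ecpas, a proteasome adaptor and scaffold, rose to 46.3 ± 2.55 TPM in EpiLCs, against 25.0 ± 0.763 TPM in ESCs (log2 fold change 0.86), and the cap-bound deubiquitinase Usp14 to 202 ± 1.69 TPM in EpiLCs, against 149 ± 6.33 TPM in ESCs (log2 fold change 0.43). Zfand5 rose by 0.26 and Zfand2a fell by 0.60 on the log2 scale; both encode zinc finger proteins that bind the cap. The next 3 genes were picked after their values were seen. The core maturation factor Pomp had 233 ± 7.28 TPM in EpiLCs and 204 ± 17.1 TPM in ESCs (limma adjusted p = 0.026), a call lost in 7 of 15 alternatives, among them leaving out EpiLC replicate 1 or 3 or ESC replicate 2 or 3 (adjusted p = 0.053 to 0.089). The ubiquitin receptor Adrm1 had 104 ± 2.35 TPM in EpiLCs and 92.9 ± 0.369 TPM in ESCs (limma adjusted p = 0.014), a call lost with median-of-ratios scaling, and the small lid subunit Sem1 had 62.6 ± 3.89 TPM in EpiLCs and 73.3 ± 1.36 TPM in ESCs (adjusted p = 0.0096).

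The transcription factor NRF1, encoded by Nfe2l1, raises proteasome gene expression when proteasome activity falls short, and NRF2, encoded by Nfe2l2, is a related factor held in check by Keap1. Of 9 genes of this pathway 1 was called higher, 4 lower, and 4 did not pass (median log2 fold change -0.12). These are 11.1% higher and 44.4% lower, against 36.1% and 30.9% of all tested genes. Nfe2l1 had 115, 111 and 126 TPM in EpiLCs, against 173, 199 and 172 TPM in ESCs (log2 fold change -0.62, SE 0.07, adjusted p = 0.00017). Nfe2l2 had 63.4, 63.2 and 70.1 TPM in EpiLCs, against 104, 113 and 106 TPM in ESCs (log2 fold change -0.71). Keap1 and Nfe2l3 fell by 0.82 and 0.49 on the log2 scale. The transcripts of both factors were lower in EpiLCs, where most called core and cap genes were higher. Any link between them was not tested, and the activity of the factors was not measured.

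Among 14 genes of ubiquitin supply and delivery, 4 were called higher, 6 lower and 4 did not pass (median log2 fold change -0.02). These are 28.6% higher and 42.9% lower, against 36.1% and 30.9% of all tested genes. The activating enzyme Uba6 rose to 41.0 ± 5.32 TPM in EpiLCs, against 23.6 ± 0.927 TPM in ESCs (log2 fold change 0.77), while the main activating enzyme Uba1 fell to 319.7 ± 23.8 TPM in EpiLCs, against 412 ± 31 TPM in ESCs (log2 fold change -0.36). The shuttle factor Ubqln2 rose by 0.70 on the log2 scale.

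Antigen presentation and interferon genes, which share regulation with the immunoproteasome in immune cells, did not follow the inducible subunits as a block. Of 19 genes 14 were tested, of which 5 were called higher and 7 lower (median log2 fold change -0.02). These are 35.7% higher and 50% lower, against 36.1% and 30.9% of all tested genes. The class I molecule gene H2-K1 rose to 98.4 ± 7.94 TPM in EpiLCs, against 34.0 ± 6.47 TPM in ESCs (log2 fold change 1.52), although class I genes have near-identical relatives and single values are uncertain. The peptide transporter gene Tap1, the neighbour of Psmb9, had 10.1, 6.31 and 9.87 TPM in EpiLCs, against 4.05, 3.32 and 2.13 TPM in ESCs (log2 fold change 1.23, SE 0.22, adjusted p = 0.0016). Irf8, a transcription factor of the interferon response, fell to 1.52 ± 0.575 TPM in EpiLCs, against 8.48 ± 2.56 TPM in ESCs (log2 fold change -1.90).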

How the data were processed

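The values are TPM from poly(A)-selected RNA of 3 EpiLC and 3 ESC libraries, deposited by the authors as 1 table. FastQC, Trim Galore, STAR, Salmon and GRCm39 (mm39) are named, per the submitters' processing notes, and versions and roles are not given in the sources used here. TPM keep no depth, so the depth behind each value is unknown. From them log2(TPM + 1) was computed, and limma 3.58.1 in R 4.3.3 (variance trend, 6 libraries, no block) was run over 14036 genes with a mean of at least 1 TPM, with Benjamini-Hochberg adjustment over all of them and a threshold of 0.05; the code was tested on simulated data. Groups were taken from sample titles. All tested genes of the name pattern are described; from each companion list the 4 called genes with the largest absolute log2 fold change are named, except a few that are not reported here, and others are marked as picked later. The genes and lists were chosen with earlier results of these data known. The alternatives changed the pseudocount, filter, scaling, block, variance trend, weights and libraries.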

Additional observations from a re-analysis of the deposited data

How the results depend on the processing

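Of the 29 called genes among the 51, 23 stayed called in the same direction under every alternative that tested them (15, and 14 for Psmb9, which the filter at a mean of 5 TPM leaves out) and 6 (Psma1, Psma6, Psmb5, Psmd4, Psmd9 and Psmd13) lost the call under at least 1; of the 20 that did not pass, 5 (Psma2, Psmb1, Psmd2, Psmd10 and Psmd14) passed under at least 1. Leaving out 1 library gave 21 to 23 genes called higher and 6 to 7 lower, and a median log2 fold change between 0.0963 and 0.13. With the replicate number as a block 25 genes were called higher and 7 lower, against 23 and 6 without it. Deviations of same-numbered libraries correlated at 0.102, 0.142 and 0.065; each library correlated best with its own number, a hint from the data only, and the labels do not pair them. Median-of-ratios scaling moved the median of all genes to -0.03, against 0.04, and that of the 49 tested genes to 0.0533. Under it the log2 ratios of summed TPM were 0.19 for the alpha subunits, 0.0562 for the standard beta subunits, 0.12 for the ATPases and 0.29 for the core chaperones, and turned negative for the other cap subunits (-0.0278), the base chaperones (-0.0584, and -0.0392 without ESC replicate 2) and the activators and inhibitor (-0.0422). The base chaperone ratio ran from -0.0392 to 0.0661 with 1 library left out. Median-of-ratios scaling divides each library by 1 factor, which was 1.02 to 1.05 for EpiLC and 0.970 to 0.991 for ESC libraries. It thus lowered the ratio of every class, and ratios just above 0 turned negative. What lies behind the factors was not tested.

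Genes whose log2 fold change turned round had not passed the test and lay near 0. With median-of-ratios scaling these were Psmb2 (-0.0632), Psmb3 (-0.0530), Psmb4 (-0.0030), Psmc2 (-0.0075), Psmc5 (-0.0206), Psmd1 (-0.0298), Psmd5 (-0.0275), Psmd11 (-0.0592), Psmd12 (-0.0504), Psme4 (-0.0682) and Psmf1 (-0.0753). Quantile normalization gave -0.0253 for Psmb2, -0.0104 for Psmb3 and -0.0062 for Psmf1, and array weights gave -0.0061 for Psme4. With 1 library left out, the log2 fold change ran from -0.11 to 0.0690 for Psma8, from -0.0173 to 0.0642 for Psmb3, from -0.0221 to 0.0529 for Psmd11, from -0.0301 to 0.0369 for Psme4 and from -0.0417 to 0.0238 for Psmf1.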
